A study of Mus musculus with 6 samples.

Results

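The genes of linker histone H1 and of the core histones H2A, H2B, H3 and H4 were followed in cultured mouse CD8 T cells labelled CD73 KO or WT. Members were all protein-coding genes named Hist1h, Hist2h, Hist3h, Hist4 or H1f, under the older symbols, with at least 10 counts summed over the 6 libraries. This gave 48 of the 49671 genes in the table, 8 linker H1 genes and 40 core genes, the latter divided into 8 for H2A, 12 for H2B, 8 for H3 and 12 for H4. Of the 69 protein-coding genes with such names, 21 were under the minimum, 7 of them at 0. The lowest member held 13 counts and the highest gene left out held 9.

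RNA came from T cells carrying OT-I, a transgenic receptor for an ovalbumin peptide, labelled CD73 KO (3 libraries) or WT (3 libraries). CD73, encoded by Nt5e, is a surface enzyme that makes adenosine. Per the labels' protocols, CD8 T cells from OT-I spleens were all given that peptide (10 ng/mL) daily over 5 days with IL-7 and IL-15 (5 ng/mL each), were replated after 48 hours, and live cells were sorted before extraction. Both groups therefore carry the OT-I receptor and the same repeated stimulation, and no unstimulated group was analysed here. The sources used here give neither the age of the mice, nor the knockout allele, nor whether libraries of a group came from separate animals. The p-values thus rest on the spread among these libraries only, and that spread may be technical.

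Libraries held 6934150 to 19382950 counts, so that a floor of 3 counts equals 0.160 to 0.427 CPM. CPM is the count per 1000000 counts of the library after scaling with TMM factors. Nt5e was at 3.67, 8.45 and 8.47 CPM in CD73 KO replicates 1 to 3 and at 22.6, 5.22 and 37.4 CPM in WT replicates 1 to 3, a log2 fold change of -1.67 ± 0.72 (SE, edgeR adjusted p = 0.534). The library labelled WT replicate 2 lay within the CD73 KO range, and some of the results below, not all, are also given without it. All 6 listed CD8 T cell markers were expressed (summed 3109 to 3407 CPM in CD73 KO against 2779 to 2994 CPM in WT). Cd4 was at 0 to 0.712 CPM. The 5 B cell markers summed to 1.64 to 2.45 CPM (CD73 KO) and 0.639 to 1.71 CPM (WT), mostly from Cd79b, and the 6 myeloid markers to 0.638 to 0.963 CPM and 0.712 to 1.07 CPM. The 3 plasmacytoid dendritic cell markers summed to 116 to 123 CPM (CD73 KO) and 69.8 to 126 CPM (WT), from Bst2 and Tcf4, which other cells express as well. The part of such cells in the results was not tested. The defining markers Lyz2, Csf1r, C1qa and Spi1 of myeloid cells, Ms4a1 and Pax5 of B cells and Siglech of plasmacytoid dendritic cells had 0 counts in all libraries, as did 4 of 5 erythroid markers, and the 4 markers listed for NK cells, a list that partly overlaps with activated T cells, summed to 3.04 to 18.8 CPM (CD73 KO) and 3.84 to 39.5 CPM (WT).

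Core histones form the octamer around which DNA is wrapped, and linker H1 binds the nucleosome where DNA enters and leaves it and favours compact chromatin. Most histone genes lie in clusters, lack introns and are transcribed in S phase, when new DNA is packed. Their transcripts end in a conserved stem-loop, bound by the protein SLBP, instead of a poly(A) tail. A dividing T cell needs this supply at each division, whereas H1f0 encodes a linker histone that is made outside S phase from a polyadenylated transcript and is known for accumulating in differentiated cells. Of the 48 members, 38 lay on chromosome 13, 4 on chromosome 3, 3 on chromosome 6, 2 on chromosome 11 and 1 on chromosome 15.

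The sequences at the starts of the clustered linker genes are shown first because 3 of them were among the 4 tested members whose genotypes did not overlap. RefSeq promoters (GRCm38.p6, the assembly that mm10 names) were matched for 43 of 48 members, and the last 130 bases before the start of the 5 clustered linker genes on chromosome 13 are printed 5′ to 3′. Capitals on either strand mark the word CCAAT, bound by the factor NF-Y, the TATA box searched as TATAAA, and the element AAACACA known from linker histone promoters.
Hist1h1a (chr13:23763538-23763667, plus strand): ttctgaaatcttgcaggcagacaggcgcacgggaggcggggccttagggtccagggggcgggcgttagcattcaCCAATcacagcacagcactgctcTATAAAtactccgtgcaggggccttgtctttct
Hist1h1b (chr13:21780626-21780755, minus strand): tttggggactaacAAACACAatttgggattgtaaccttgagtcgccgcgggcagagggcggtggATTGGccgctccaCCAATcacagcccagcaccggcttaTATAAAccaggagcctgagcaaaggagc
Hist1h1c (chr13:23738677-23738806, plus strand): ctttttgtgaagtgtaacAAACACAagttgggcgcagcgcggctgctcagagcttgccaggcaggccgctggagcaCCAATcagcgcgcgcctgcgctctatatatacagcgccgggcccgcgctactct
Hist1h1d (chr13:23554902-23555031, plus strand): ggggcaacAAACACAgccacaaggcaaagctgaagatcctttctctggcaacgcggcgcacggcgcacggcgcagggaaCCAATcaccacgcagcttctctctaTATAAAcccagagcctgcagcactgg
Hist1h1e (chr13:23622559-23622688, minus strand): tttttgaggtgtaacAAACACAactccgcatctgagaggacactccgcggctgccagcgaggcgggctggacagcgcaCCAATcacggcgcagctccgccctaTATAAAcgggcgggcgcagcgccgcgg
RefSeq starts Hist1h1d inside the longer GENCODE model. The words did not overlap each other in these stretches. On the gene's own strand the CCAAT nearest the start began at -56 to -51 in all 5 genes, TATAAA at -33 to -26 in 4 of them (not in Hist1h1c), and AAACACA at -122 to -112 in 4 of them (not in Hist1h1a). In 250 bases before the start and on both strands, CCAAT was found in 33 of the 43 matched members against 33.8% of all 32851 promoters. TATAAA was found in 21 members against 12.4% of promoters. AAACACA was found in 5 members, 4 linker genes and 1 H2A gene, against 6.25% of promoters. By class, CCAAT stood in 6 of 8 linker, 8 of 8 H2A, 10 of 10 H2B and 6 of 6 H3 promoters, but in 3 of 11 H4 promoters.

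The stem-loop was searched in GENCODE M21 transcripts on the transcript strand as 6 bases, a loop of 4 bases and the reverse complement of the first 6, where the stem opens with GG and closes with T, and the loop reads TNTN. It stood in 32 members and in 69 of 21901 protein-coding genes (0.315%, members included). The word can be found only where the annotated transcript reaches it, and the shortest model of the other 16 members held 312 bases. Its absence from a model thus does not show that the transcript lacks it. Examples follow 5′ to 3′ with the 16 bases of the stem-loop in capitals and 5 bases on each side, chosen as the linker genes that hold it and 2 H4 genes that differ from them in the stem.
Hist1h1c: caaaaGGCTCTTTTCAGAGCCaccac
Hist1h1d: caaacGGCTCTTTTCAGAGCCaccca
Hist1h1e: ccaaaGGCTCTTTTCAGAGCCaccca
Hist1h4i: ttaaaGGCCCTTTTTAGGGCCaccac
Hist1h4j: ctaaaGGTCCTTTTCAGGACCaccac
There were 8 versions of the 16 bases, and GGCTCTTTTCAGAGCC, that of the 3 linker genes, was the most frequent with 14 members. In 18 members the annotated transcript ran more than 100 bases past the stem-loop, among them Hist1h1c (840 bases), Hist1h1e (1153 bases) and Hist1h1d (4884 bases). In 14 members it ended within 100 bases. The models of Hist1h1a (741 bases) and Hist1h1b (743 bases) did not hold the word.

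Levels were low. All members without H1f0 took 0.00574% to 0.00828% of the counts of a CD73 KO library and 0.00518% to 0.00571% of those of a WT library. The median member held 45 counts over 6 libraries, and 36 of 48 held under 100. The sources used here do not say whether RNA was selected by its poly(A) tail. Of 15 listed RNAs that lack such a tail, Rn7sk, the 7SK RNA, had 22 to 337 counts per library and 2 had none.

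Between genotypes, no histone gene passed the main test, and the tested genes furthest from equality were the linker genes Hist1h1a and Hist1h1b. Over the count filter of edgeR stood 17 members, 6 linker and 11 core genes, and 11 of them, all 6 linker genes included, were over its level in all 6 libraries. Of the other 6, 5 were over it in more CD73 KO than WT libraries. By edgeR's quasi-likelihood test 0 of 17 passed at an adjusted p of 0.05, where 0.0572% of 12242 genes did (0.0408% as higher in CD73 KO). The log2 fold change was above 0 for 15 of the 17, all 6 linker genes and 9 of 11 core genes, as it was for 52.3% of all genes. Its median was 0.82 over the linker genes, 0.17 over the core genes and 0.013 over all genes. At an unadjusted p under 0.05 there were 5 members, all higher in CD73 KO, where 5.75% of all genes were higher and 3.89% lower. These 5 members became 2 when WT replicate 2 was left out (2.96% of all genes higher) and also when WT replicate 1 was (3.90%). They became 3 when CD73 KO replicate 1 (5.19%) or replicate 3 of that genotype (7.26%) was left out. The groups did not overlap in 4 members, again all higher in CD73 KO, where 7.59% of all genes were higher and 7.6% lower without overlap. limma-voom called 0 members, DESeq2 called Hist1h1a, and edgeR fitted to unfiltered counts called Hist1h1a and Hist1h1b. DESeq2 called 0.81% of its genes and the unfiltered fit 1.4%.

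Hist1h1a (ENSMUSG00000049539, H1f1 in RefSeq, chromosome 13, 23763666 to 23764406), which encodes a linker histone known from lymphoid tissue and testis, had the widest difference. It was at 3.40, 4.69 and 3.56 CPM in CD73 KO against 1.01, 1.38 and 1.57 CPM in WT. Every CD73 KO library was above every WT library. The log2 fold change was 1.58 ± 0.31 (SE, edgeR adjusted p = 0.175). The WT values rest on 13, 13 and 11 counts, and exact 95% Poisson intervals, which cover counting error only, ran from 0.538 to 2.80 CPM over the WT libraries and from 2.51 to 5.91 CPM over the CD73 KO libraries. Without the library labelled WT replicate 2 the log2 fold change was 1.63 (adjusted p = 0.617). The adjusted p was 0.0375 with DESeq2 and 0.00249 by edgeR without a filter, and over 17 alternatives it ran from 0.00249 to 0.617.

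Hist1h1b (ENSMUSG00000058773, H1f5, chromosome 13, 21779883 to 21780625), a linker histone gene of dividing cells, was at 4.04, 4.62 and 4.91 CPM in CD73 KO. In WT it was at 1.79, 1.38 and 2.42 CPM, on 23, 13 and 17 counts. The groups did not overlap, and the CD73 KO values lay close together. The log2 fold change was 1.29 ± 0.29 (SE, edgeR adjusted p = 0.252), and 1.12 without WT replicate 2 (adjusted p = 0.908). The adjusted p was 0.0779 with DESeq2 and 0.0144 by edgeR without a filter.

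Hist1h1e and Hist1h1d, which encode linker histones present in most cell types, differed less. Hist1h1e (H1f4, chromosome 13, 23620629 to 23622558) was at 4.31, 2.84 and 3.27 CPM in CD73 KO against 2.02, 1.70 and 2.56 CPM in WT. The groups did not overlap, with a log2 fold change of 0.75 ± 0.30 (SE, edgeR adjusted p = 0.482). Its exons overlap those of Hist1h2be on the same strand, so reads of the 2 genes may have been exchanged or set aside by the counting. Hist1h1d (H1f3, chromosome 13, 23553262 to 23560686) was at 3.09, 2.84 and 3.47 CPM in CD73 KO against 1.32, 0.959 and 2.99 CPM in WT. Here WT replicate 3 lay within the CD73 KO range and the other WT libraries below it. The log2 fold change was 0.89 ± 0.39 (SE, edgeR adjusted p = 0.512). Without WT replicate 2 it was 0.62 for Hist1h1e and 0.60 for Hist1h1d. Without WT replicate 3 it was 1.42 for Hist1h1d (adjusted p = 0.192).

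Hist1h1c (H1f2, chromosome 13, 23738808 to 23740367), another widespread linker histone gene, was at 11.1, 8.85 and 10.97 CPM in CD73 KO against 8.94, 9.91 and 6.41 CPM in WT. The groups overlapped, with a log2 fold change of 0.28 ± 0.21 (SE, edgeR adjusted p = 0.689). It was 0.40 when WT replicate 2 was left out and 0.13 when WT replicate 3 was. H1f0 (chromosome 15, 79028450 to 79030504) was at 102, 88.1 and 66.3 CPM in CD73 KO against 88.4, 83.9 and 70.2 CPM in WT. All WT libraries lay within the CD73 KO range, and its log2 fold change was 0.083 ± 0.16 (SE, edgeR adjusted p = 0.889). Leaving out CD73 KO replicate 1 gave -0.075, leaving out WT replicate 2 gave 0.10, and leaving out WT replicate 3 gave -0.0086. Per kilobase of annotated exons H1f0 was the most abundant member, at 41.6 CPM in CD73 KO against 39.3 CPM in WT. On the same scale Hist1h1b and Hist1h1a were at 6.09 and 5.24 CPM in CD73 KO against 2.51 and 1.78 CPM in WT, and Hist1h1c at 6.61 and 5.40 CPM. The model of Hist1h1d is 7425 bases long, and its 0.422 and 0.237 CPM per kilobase depend on that length. The H1f0 transcript is polyadenylated, whereas those of most clustered histone genes end in the stem-loop. Without a stated RNA selection, the rank of H1f0 in these counts need not be its rank in the cells.

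**Figure D1:**
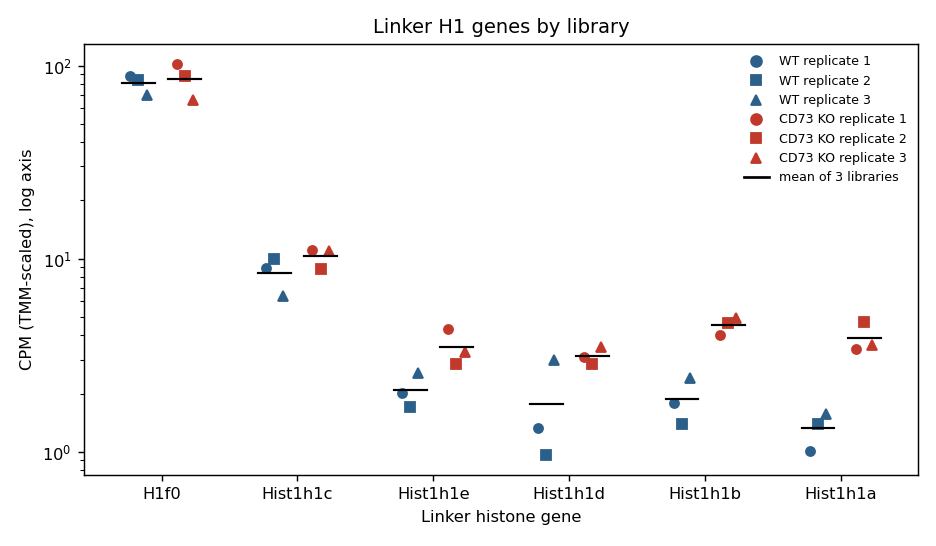
CPM (log axis) of the 6 linker H1 genes over the count filter in each library, WT in blue and CD73 KO in red, with symbols for replicates and a black line at the mean of 3 libraries. Hist1h1a, Hist1h1b and Hist1h1e do not overlap between groups, while Hist1h1c and H1f0 do.

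The remaining linker genes were near the detection floor. H1fx, a linker histone gene outside the clusters, had 22, 7 and 4 counts in CD73 KO and 5, 6 and 4 in WT. H1foo, known as the linker histone of the oocyte, had 2, 6 and 3 counts in CD73 KO and 4, 2 and 5 in WT. Their groups overlapped, with log2 fold changes of 0.44 ± 0.56 and -0.59 ± 0.71 (SE).

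Summed over the 5 clustered linker genes, the libraries of each genotype lay close together. The sum was 26.0, 23.8 and 26.2 CPM in CD73 KO, on 488, 361 and 272 counts. It was 15.1, 15.3 and 15.9 CPM in WT, on 194, 144 and 112 counts. Means were 25.3 ± 1.30 CPM in CD73 KO against 15.5 ± 0.442 CPM in WT (SD, n = 3), a log2 ratio of 0.71, and the groups did not overlap. The counting error of these sums was not computed. On 112 to 194 counts in WT, the close values of 3 libraries do not show that the level was even. All 8 linker genes together, of which H1f0 supplied most, stood at 112 ± 18.2 CPM in CD73 KO against 97.2 ± 8.76 CPM in WT (SD, n = 3), with overlap.

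Ratios within a library do not depend on its scaling. For each 100 counts of H1f0 there were 25.4, 27.1 and 39.5 counts of the 5 clustered linker genes in CD73 KO and 17.1, 18.3 and 22.7 in WT, without overlap. Hist1h1a and Hist1h1b, which had the largest log2 fold changes of the 5 genes, made up 28.7%, 39.1% and 32.4% of their counts in CD73 KO. In WT Hist1h1a and Hist1h1b made up 18.6%, 18.1% and 25%. A higher share in CD73 KO follows from taking these genes and is no separate result. The share of Hist1h1c was 37.1% to 42.8% in CD73 KO and 40.2% to 64.6% in WT. WT replicate 3 lay within the CD73 KO range for Hist1h1c and outside it for Hist1h1a plus Hist1h1b.

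**Figure D2:**
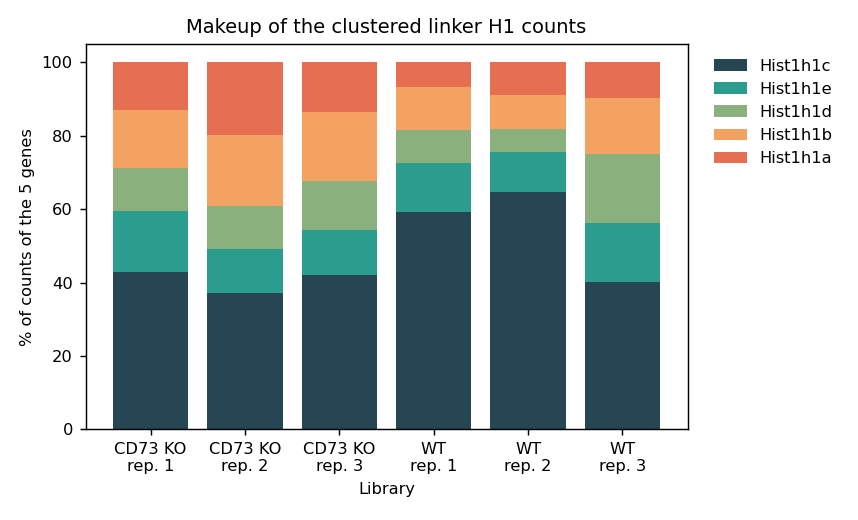
Share (%) of each of the 5 clustered linker genes in their summed counts, 1 bar for each library. The upper segments, Hist1h1b and Hist1h1a, which have the largest log2 fold changes of the 5, take 28.7% to 39.1% in CD73 KO and 18.1% to 25% in WT.

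Core histone classes overlapped between the genotypes, and 1 CD73 KO library set much of the spread. All 40 core members summed to 48.7, 31.6 and 54.5 CPM in CD73 KO against 36.7, 36.6 and 39.2 CPM in WT. CD73 KO replicate 2 was below every WT library and the other CD73 KO libraries above, and the means were 44.9 ± 11.9 and 37.5 ± 1.43 CPM (SD, n = 3). H2B summed to 19.5, 13.7 and 22.3 CPM in CD73 KO against 14.5, 14.2 and 14.7 CPM in WT. H4 summed to 19.9, 12.7 and 23.4 CPM in CD73 KO against 16.5, 15.9 and 16.4 CPM in WT. Both classes showed the same order of CD73 KO libraries. H2A summed to 2.11 to 4.26 CPM in CD73 KO against 2.57 to 3.51 CPM in WT, and H3 to 3.10 to 5.01 CPM and 3.09 to 4.84 CPM. Of the 40 core members, 20 were highest in CD73 KO replicate 3, 9 in CD73 KO replicate 1, 8 in WT replicate 3 and 0 in CD73 KO replicate 2. The sum of the clustered linker genes was also lowest in replicate 2 among the CD73 KO libraries, at 23.8 CPM, but lay above every WT library. Linker counts other than H1f0, with H1fx and H1foo included, were 78.1 for each 100 core counts in that CD73 KO library. They were 56.0 and 49.3 in the other CD73 KO libraries and 43.0 to 44.2 in WT.

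The RNAs listed as lacking a poly(A) tail summed to 30.3, 5.08 and 9.34 CPM in CD73 KO against 24.6, 13.5 and 13.1 CPM in WT. CD73 KO replicate 2 was the lowest library by this measure as well. CD73 KO replicate 3, which had the highest core sum, was also below every WT library here. The part of this measure in the core histone values was not tested.

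**Figure D3:**
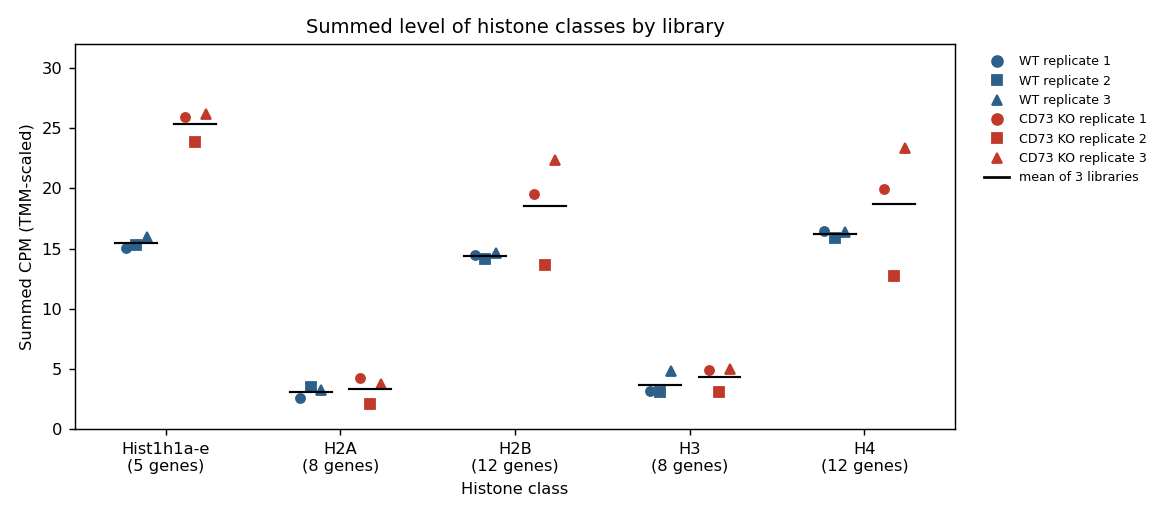
Summed CPM of the 5 clustered linker genes and of the members of each core class in each library, with a black line at the mean of 3 libraries. The clustered linker genes lie at 23.8 to 26.2 CPM in CD73 KO against 15.1 to 15.9 CPM in WT, while H2B and H4 spread from 12.7 to 23.4 CPM within CD73 KO.

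Among single core genes, Hist1h2bb, an H2B gene (chromosome 13, 23746734 to 23747241), was the 1 over the filter without overlap. It was at 1.97, 1.78 and 3.56 CPM in CD73 KO against 0.855, 1.28 and 1.71 CPM in WT. CD73 KO replicate 3 stood well above the others. The log2 fold change was 0.94 ± 0.40 (SE, edgeR adjusted p = 0.503). With CD73 KO replicate 3 left out it was 0.60, and with WT replicate 2 left out 0.96.

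The most abundant core gene was Hist1h4i, an H4 gene (chromosome 13, 22040636 to 22041362), at 10.7, 8.12 and 12.8 CPM in CD73 KO against 10.9, 11.3 and 9.82 CPM in WT. All WT libraries lay within the CD73 KO range, and the log2 fold change was -0.026 ± 0.20 (SE, edgeR adjusted p = 0.977). Per kilobase it stood at 14.5 CPM in CD73 KO against 14.7 CPM in WT. Hist1h4d was at 3.19, 1.39 and 3.95 CPM in CD73 KO against 2.33, 1.07 and 3.13 CPM in WT, and Hist1h4c at 1.01, 0.792 and 1.06 CPM and 0.544, 0.852 and 0.854 CPM. These 2 H4 genes overlapped between groups, with log2 fold changes of 0.39 ± 0.46 and 0.38 ± 0.40 (SE). With WT replicate 2 left out that of Hist1h4d was 0.060, and over the other libraries left out it ran from 0.11 (CD73 KO replicate 3) to 0.72 (CD73 KO replicate 2). That of Hist1h4c was 0.15 when WT replicate 1 was left out.

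Among the other H2B genes over the filter, Hist2h2be, Hist1h2bc and Hist1h2bj sat close to equality, and Hist1h2be less so. Hist2h2be, of the cluster on chromosome 3, was at 3.94, 3.76 and 4.52 CPM in CD73 KO against 4.59, 3.62 and 3.42 CPM in WT. Hist1h2bc was at 3.94, 2.38 and 4.52 CPM and 2.88, 3.83 and 3.70 CPM. Hist1h2bj was at 2.02, 1.45 and 2.98 CPM and 2.26, 1.92 and 1.42 CPM. Their log2 fold changes were 0.053 ± 0.24, 0.059 ± 0.30 and 0.15 ± 0.35 (SE), and each turned below 0 when CD73 KO replicate 3 was left out. Hist1h2be, which overlaps Hist1h1e, was at 1.28, 1.25 and 1.35 CPM in CD73 KO against 1.32, 0.852 and 0.712 CPM in WT (0.37 ± 0.37, SE). Its log2 fold change was 0.70 without WT replicate 1 and 0.22 without WT replicate 3.

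Genes of H3 and H2A over the filter were low. Hist1h3c was at 1.01, 0.528 and 1.35 CPM in CD73 KO against 0.622, 0.746 and 1.14 CPM in WT. Hist1h3e was at 1.22, 0.264 and 0.674 CPM and 1.01, 0.426 and 0.854 CPM. Hist3h2a, an H2A gene on chromosome 11, was at 1.28, 1.12 and 0.963 CPM and 0.933, 0.746 and 1.42 CPM. All 3 overlapped between groups, with log2 fold changes of 0.22 ± 0.47, -0.059 ± 0.58 and 0.17 ± 0.38 (SE). Over the 11 core genes the edgeR adjusted p ran from 0.503 for Hist1h2bb to 0.982 for Hist1h3e.

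**Figure D4:**
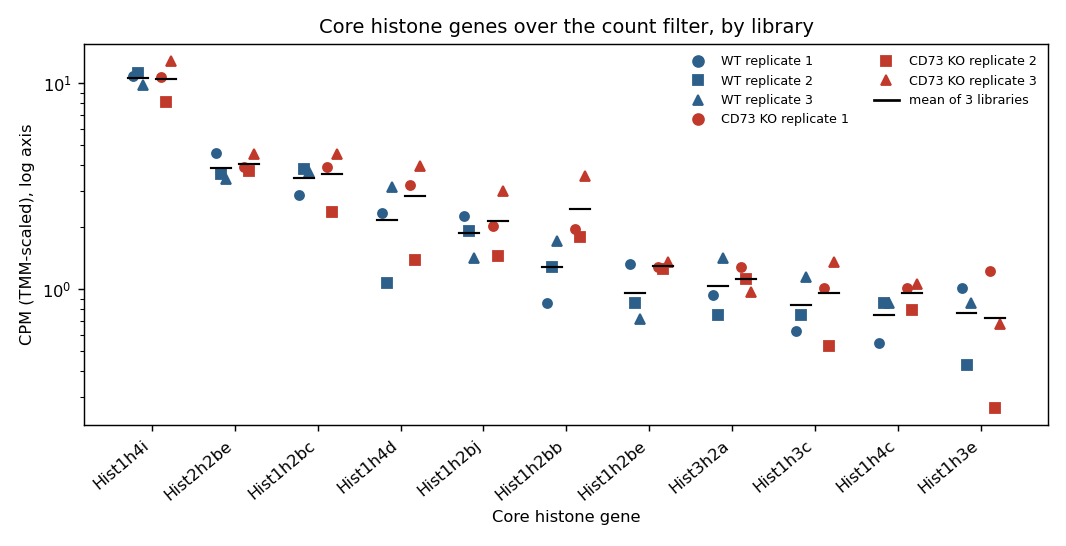
CPM (log axis) of the 11 core histone genes over the count filter in each library, ordered by their summed counts, with a black line at the mean of 3 libraries. CD73 KO replicate 2 (red squares) is the lowest CD73 KO library for most genes, and Hist1h2bb alone does not overlap between groups.

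The filter left out 31 members with 13 to 62 counts in all, 29 of them core genes. A fit of the 15345 genes with at least 10 counts summed held all 48. The limit does not use the group labels, but it is on raw counts. CD73 KO libraries held 10202128 to 19382950 counts against 6934150 to 13039990 in WT. Members near the limit can therefore pass mainly through their CD73 KO counts, which favours higher members. In that fit 39 members were higher in CD73 KO, against 53.3% of all genes, and 9 were lower. This share was not matched for level: 12242 of the 15345 genes were over the count filter, but only 17 of the 48 members. The median log2 fold change was 0.43 over the members and 0.021 over all genes, and 0 members passed the adjusted threshold (0.0587% of all genes did). By class 7 of 8 linker genes, 5 of 8 H2A genes, 12 of 12 H2B genes, 6 of 8 H3 genes and 9 of 12 H4 genes were higher, with medians of 0.59, 0.31, 0.69, 0.36 and 0.53. Without WT replicate 2, in the same order, 7, 4, 11, 6 and 10 were higher, against 52.4% of all genes. Their medians were then 0.60, 0.068, 0.52, 0.16 and 0.37. The standard error of a single member's log2 fold change had a median of 0.57. Groups did not overlap in 8 members, all higher in CD73 KO, where 7.87% of all genes were higher and 6.85% lower without overlap. At an unadjusted p under 0.05 there were 6 members, all higher, where 5.46% of all genes were higher and 3.56% lower. These 6 became 3 when WT replicate 2 was left out (2.95% of all genes higher), as they did on leaving out WT replicate 1 and, among CD73 KO libraries, replicate 1 (where 1 member was lower) or replicate 3. Leaving out CD73 KO replicate 2 gave 9 in their place.

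Single libraries moved the count of higher members. Leaving out CD73 KO replicate 2 gave 43, leaving out CD73 KO replicate 1 gave 32, and leaving out WT replicate 2 gave 38. Members are not independent: they share sequence, and in a dividing culture they share their phase of transcription.

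Under the filter, Hist2h4, an H4 gene on chromosome 3, had 12, 5 and 7 counts in CD73 KO and 3, 2 and 1 in WT, without overlap on the CPM scale (log2 fold change 1.37 ± 0.62, SE). Hist1h4h had 12, 5 and 9 counts against 4, 3 and 1, and Hist1h2bk 15, 11 and 12 against 7, 5 and 5, also without overlap. On the lower side Hist1h2ae had 9, 3 and 1 counts in CD73 KO and 6, 11 and 1 in WT (-1.09 ± 0.73, SE), and its log2 fold change was -0.27 without WT replicate 2. The log2 fold changes of the other members under the filter with at least 30 counts, Hist1h2ag, Hist2h2bb, Hist1h2bn, Hist3h2ba, Hist1h2bg, Hist1h3a, Hist1h3f, Hist1h4b, Hist1h4j, Hist1h4f and H1fx, lay between 0.16 and 1.05, and between 0.079 and 1.86 without WT replicate 2. The remaining 16 held under 30 counts each.

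**Figure D5:**
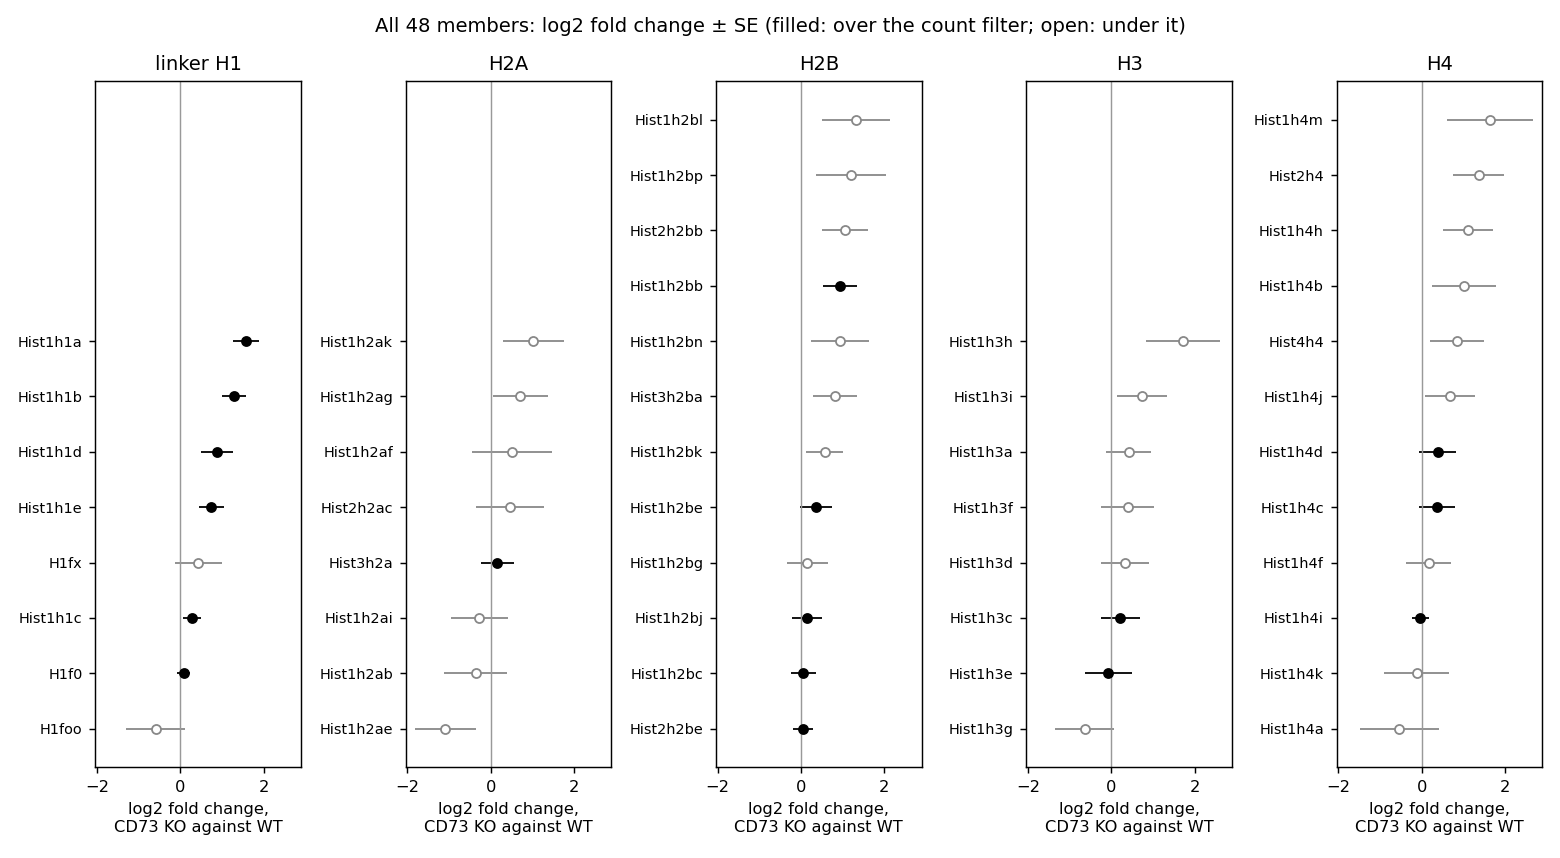
Log2 fold change of CD73 KO against WT with its SE for all 48 members, by class, from the fit of genes with at least 10 counts summed; filled points are members over the count filter and open points those under it. Of the 48 points 39 lie above 0, and the linker genes Hist1h1a and Hist1h1b lie furthest from 0 among the filled points.

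Near-identical copies limit what can be read from single core genes. The share of a member's 50-base words found in no other gene's GENCODE M21 transcript had a median of 96.0% in linker H1, 42.5% in H2A, 53.1% in H2B, 48.2% in H3 and 65.8% in H4. It was 100% for Hist1h1a and Hist1h1b and 0% for Hist2h2bb. The sources used here do not say how reads with several matches were counted, so levels of the 18 members under 50% are uncertain. In the fit of all 48, 13 of these 18 were higher in CD73 KO (median log2 fold change 0.64), as were 26 of the 30 others (median 0.38). Genes on the opposite strand overlap the exons of 12 members, and without a stated strand setting their reads cannot be told apart.

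Genes that act with histones were described from lists. The main edgeR fit and limma-voom called 0 genes in each of the 5 lists below. DESeq2 and the unfiltered edgeR fit called Daxx alone. At an unadjusted p under 0.05 the main fit held 2 higher and 1 lower chaperone gene, 1 lower processing gene, 1 lower S phase gene and none of the others. Of all genes 5.75% were higher and 3.89% lower at that p. Beside the counts by direction below, 52.3% of all genes had a log2 fold change above 0. Among 9 tested genes of histone variants and replication-independent histones, 6 were higher, with a median log2 fold change of 0.076. H2afz, an H2A variant at promoters, was at 284 ± 28.1 CPM in CD73 KO against 294 ± 6.44 CPM in WT (SD, n = 3), and H3f3b, an H3 supplied outside S phase, at 741 ± 193 and 723 ± 65.4 CPM. H2afv had the smallest p of the higher ones (0.34 ± 0.17, SE) and H2afj of the lower ones (-0.14 ± 0.28, SE).

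Of 18 genes that process histone transcripts, 7 were higher and 11 lower (median -0.034). Slbp, the stem-loop binding protein, was at 187 ± 18.7 CPM in CD73 KO against 185 ± 5.06 CPM in WT (SD, n = 3). Npat, the activator of histone transcription, was at 77.8 ± 14.5 and 69.0 ± 2.98 CPM. Both lay within the spread of the libraries. Sympk, a scaffold of the cleavage complex, had the smallest p (-0.23 ± 0.10, SE, edgeR adjusted p = 0.507), and Tut7, a uridylating enzyme, the smallest on the higher side (0.22 ± 0.13, SE).

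Of 25 histone chaperone genes, 5 were higher and 20 lower (median -0.063). They summed to 9240 to 10105 CPM in CD73 KO against 10259 to 10638 CPM in WT, without overlap. Daxx, a chaperone of the replication-independent H3, was at 112 ± 10.8 CPM in CD73 KO against 78.6 ± 5.20 CPM in WT (SD, n = 3), without overlap (0.52 ± 0.11, SE, edgeR adjusted p = 0.252). Set had the smallest p on the lower side (-0.25 ± 0.10, SE, edgeR adjusted p = 0.477).

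Genes of S phase, when clustered histone genes are transcribed, had a median close to equality, but most of them were lower in CD73 KO. Of 38 S phase genes, 8 were higher and 30 lower, with a median of -0.045. They summed to 9240 to 9960 CPM in CD73 KO against 9803 to 10172 CPM in WT. Mcm2, a subunit of the replicative helicase, was at 345 ± 8.17 CPM in CD73 KO against 367 ± 16.2 CPM in WT, and Pcna, the sliding clamp, at 727 ± 62.0 and 737 ± 24.4 CPM (SD, n = 3). Ccne2, a cyclin of S phase entry, was at 46.9 ± 2.72 and 48.6 ± 1.75 CPM. E2f7 and Dut had the smallest p in each direction (0.34 ± 0.20 and -0.26 ± 0.10, SE). Of 20 genes of mitosis, 9 were higher and 11 lower (median -0.059), with Cenpf (0.30 ± 0.16, SE) and Bub1 (-0.13 ± 0.11, SE) of smallest p. Mki67 was at 1440 ± 247 CPM in CD73 KO against 1343 ± 127 CPM in WT (SD, n = 3).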

How the data were processed

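The authors deposited whole-number counts for each gene in each library. Per the submitters' processing notes they used fastp, HISAT2, featureCounts and the mm10 build. Versions, annotation release, strand setting and treatment of reads with several matches: not given in the sources used here. Symbols were found for 49326 of 49671 identifiers in a table of gene names, and coordinates, exons and transcripts come from GENCODE M21 on GRCm38.

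The filterByExpr function of edgeR 4.0.16, with a minimum count of 10 and a minimum total of 15, left 12242 genes, which were compared with its quasi-likelihood F-test in R 4.3.3 (TMM factors, robust dispersions, legacy fit), with Benjamini-Hochberg adjustment over all tested genes and a threshold of 0.05. The standard error is the log2 fold change divided by the square root of F. CPM is scaled by the TMM factors. Alternatives were RLE factors, library size alone, 3 other filters (none, 10 counts summed, 1 CPM in 3 libraries), the newer edgeR 4 fit, dispersions estimated without robustness, a block for replicate number, each library left out, DESeq2 1.42.0, limma-voom (limma 3.58.1) and thinning to 6934150 counts; leaving out libraries and rescaling in the fit of all 48 members were chosen after seeing the data. Members and lists were chosen with earlier results of these data known. Named were all members over the filter, those under it with at least 30 counts, Nt5e, 6 genes fixed by name, and from each related list the gene of smallest p in each direction. H1foo, H2afz, H3f3b and the sequences printed were named after their values were seen. The sum over the 5 clustered linker genes and the share of Hist1h1a and Hist1h1b were not among the planned results. H2bu2 of the variant list is Hist3h2ba and was counted as a member only.

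Libraries of a genotype differed by far more than sampling noise. The chi-square per degree of freedom was 6.97 to 11.6 for pairs of WT libraries and 18.3 to 31.4 for pairs of CD73 KO libraries. This measure also rises with depth, and the fit used the same dispersion of a gene for both groups. Tested on simulated data with 200 of 12242 genes changed, the fit recovered 31.3%, 68.7% and 92.4% of genes changed 1.5-, 2- and 4-fold, with 6.57% of 137 calls false; lowly counted genes such as most members need not reach these rates.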

Additional observations from a re-analysis of the deposited data

How the results depend on the processing

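Depth limits most members, since 36 of 48 hold under 100 counts. Calls over all genes numbered 7, and 298 without a filter, 99 with DESeq2 and 4 to 8 with a library left out (4 without CD73 KO replicate 2 or WT replicate 2). Members called numbered 0, with 2 without a filter (Hist1h1a and Hist1h1b, log2 fold changes 1.58 and 1.29) and 1 with DESeq2 (Hist1h1a, 1.58), and 0 with any library left out. The linker H1 median of 0.82 was 0.60 without a filter, 0.59 with 10 counts summed and 0.56 with DESeq2, where 8 genes enter instead of 6, and 0.61 to 1.16 with a library left out (lowest without WT replicate 2, highest without WT replicate 3). The core median of 0.17 was 0.15 to 0.47 with a library left out, highest without WT replicate 3, and 0.41 without a filter, 0.40 with 10 counts summed and 0.38 with DESeq2, where all 40 enter. After thinning, where 6 core genes remained, it was 0.051, the lowest of its alternatives. Without its most abundant member the log2 ratio of summed CPM was 0.68 for linker H1 (0.20 with it) and 0.55 for H4 (0.20 with it). With a library left out the core log2 ratio of summed CPM, 0.26, was 0.10 to 0.46, lowest without CD73 KO replicate 3 and highest without CD73 KO replicate 2. The count of 39 higher members was 32 to 43 with a library left out and 39 with RLE factors or library size alone.

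Signs turned in members near 0. Over the fits that left out a library, log2 fold changes ran from -0.075 to 0.23 for H1f0, -0.014 to 0.41 for Hist3h2a, -0.12 to 0.37 for Hist1h2bj, -0.12 to 0.29 for Hist1h2bc, -0.025 to 0.20 for Hist2h2be, -0.041 to 0.52 for Hist1h3c, -0.35 to 0.34 for Hist1h3e and -0.18 to 0.13 for Hist1h4i. After thinning they were -0.071 for Hist1h2bj, -0.11 for Hist2h2be and 0.052 for Hist1h4i. The cause was not tested. Hist1h1a, Hist1h1b, Hist1h1e, Hist1h1d, Hist1h1c, Hist1h2bb, Hist1h2be, Hist1h4c and Hist1h4d stayed above 0 in every alternative that tested them, which leaving out a library could not reverse for the genes without overlap.

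Correlations of the deviations of same-numbered libraries were 0.15, -0.17 and 0.014. Total counts fell with the replicate number in both genotypes, from 19382950 to 10202128 in CD73 KO and from 13039990 to 6934150 in WT. With 3 libraries in a group, the correlations cannot decide whether the number marks a shared experiment. With the replicate number as a block, 5 genes and 0 members were called, and the medians were 0.85 for linker H1 and 0.19 for core histones.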
